A study of Homo sapiens with 16 samples.

Results

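Nascent transcription of 6 genes, CD33, C19orf38, PRAM1, DPEP2, SLC45A3 and BMF, was followed in a leukaemia cell line after acute loss of the chromatin remodeller SMARCA5. They were selected on their gene-body read counts, which were higher after 24 h of SMARCA5 degradation than after 2 h, and they are 6 of the 10304 transcripts counted. PRO-seq locates RNA polymerases engaged on DNA by letting them extend their transcripts with labelled nucleotides in isolated nuclei. It was applied to Kasumi-1, an acute myeloid leukaemia line with the RUNX1-RUNX1T1 fusion. All cells described here carried the degradation tag FKBP12F36V on both SMARCA5 alleles (genotype SMARCA5-FKBP12F36V), and dTAG-47 directs the tagged protein to degradation. Cells given 500 nM dTAG-47 gave 3 libraries at 2 h, 4 at 6 h and 2 at 24 h, and untreated cells (0 h) gave 5. Untreated cells carried the tag too, and whether the line is a single clone is not given in the sources used here. The 2 samples of the parental line were not analysed here.

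SMARCA5 is the ATPase of the ISWI remodellers, which slide and space nucleosomes. CD33 is a sialic-acid-binding receptor of the Siglec family that carries inhibitory signalling motifs, marks myeloid cells and is a target of antibody therapy in acute myeloid leukaemia. C19orf38, also called HIDE1, encodes a membrane protein of the immunoglobulin superfamily found on myeloid cells. PRAM1 is an adaptor protein of granulocytes that was named for its regulation by PML-RARA and acts in integrin signalling. DPEP2 is a membrane dipeptidase that can convert leukotriene D4 to leukotriene E4. SLC45A3, or prostein, is a membrane transporter best known from prostate epithelium, and BMF is a BH3-only protein of the BCL2 family that promotes apoptosis. In PRO-seq, reads in the gene body report elongating polymerase, and reads in the promoter-proximal region are dominated by polymerase paused just after initiation.

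Codes in the column headers split the libraries into 3 runs, and what the codes stand for is not given in the sources used here. Libraries are named by time, run and letter, so that 24 h 2A is library A of run 2 at 24 h. Run 1 held 2 untreated libraries and 1 library at 2 h, run 2 held 2 libraries of every time, and run 3 held 1 untreated library and 2 at 6 h. The 24 h libraries therefore came from run 2 alone. Total reads per library were 11182894 to 34209362 in gene bodies and 1667950 to 7171601 near promoters. Gene-body levels of SMARCA5 were 88.1 to 105 CPM at 2 h, 84.1 to 107 CPM at 6 h and 88.7 to 105 CPM at 24 h, against 98.3 to 147 CPM untreated. The tag acts on the protein, so these levels do not report its loss. The design calls the libraries biological replicates without naming separate cultures, so p-values measure only the spread between these libraries. Levels are CPM, read counts scaled by TMM-adjusted library size.

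The transcripts were NM_001082618 for CD33 (chr19:51728335-51743274), NM_001136482 for C19orf38 (chr19:10959106-10980360) and NM_032152 for PRAM1 (chr19:8554940-8567538), in hg19 coordinates as listed. DPEP2 was NM_022355 (chr16:68021293-68033364), SLC45A3 was NM_033102 (chr1:205626981-205649630) and BMF was NM_001003940 (chr15:40380092-40401075). Chromosome 19 held 3 of the 6 genes and 8.04% of all 10304 transcripts. The 3 genes on chromosome 19 are far apart and not neighbours in the table. Their spans ran from 12071 bases (DPEP2) to 22649 bases (SLC45A3), all shorter than the median of 24787 bases. RefSeq promoter sequences (GRCh38.p14, 250 bases before to 50 bases after the start site) matched 3 of the 6 genes, CD33, SLC45A3 and BMF. They are shown so that the start regions of these genes can be compared. Capitals mark matches to GAGGAA, the core of the ETS motif of PU.1, on either strand (TTCCTC on the strand printed). The CD33 promoter lies at chr19:51224830-51225129 on the plus strand, that of SLC45A3 at chr1:205680460-205680759 on the minus strand and the outer of 2 BMF promoters at chr15:40108830-40109129 on the minus strand.
CD33: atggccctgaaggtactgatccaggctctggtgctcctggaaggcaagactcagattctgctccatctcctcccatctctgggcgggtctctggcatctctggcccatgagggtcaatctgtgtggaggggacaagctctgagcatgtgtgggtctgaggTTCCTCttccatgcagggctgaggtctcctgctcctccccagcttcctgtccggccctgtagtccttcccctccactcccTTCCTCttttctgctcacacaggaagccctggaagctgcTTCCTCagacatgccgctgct
SLC45A3: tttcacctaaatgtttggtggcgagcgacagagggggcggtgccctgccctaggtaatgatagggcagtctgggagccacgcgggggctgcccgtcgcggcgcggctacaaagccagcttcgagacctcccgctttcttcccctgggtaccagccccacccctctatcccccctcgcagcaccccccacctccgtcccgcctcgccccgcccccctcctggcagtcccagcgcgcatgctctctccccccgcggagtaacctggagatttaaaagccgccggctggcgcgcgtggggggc
BMF: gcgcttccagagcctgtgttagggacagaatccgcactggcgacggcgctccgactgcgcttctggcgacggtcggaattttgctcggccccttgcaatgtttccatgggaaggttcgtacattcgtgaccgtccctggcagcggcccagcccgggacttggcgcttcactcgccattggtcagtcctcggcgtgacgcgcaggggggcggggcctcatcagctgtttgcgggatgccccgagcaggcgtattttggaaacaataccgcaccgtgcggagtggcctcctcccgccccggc
The CD33 promoter held 3 matches to GAGGAA, at positions -90, -10 and 30 from the start site. At least 3 matches were present in 0.649% of 35116 RefSeq promoters of this length, and at least 1 in 27.9%. The cut of 3 is the count in CD33 and was used for this motif alone, so the 0.649% is a description. The SLC45A3 and outer BMF promoters held none, and the inner BMF promoter (chr15:40106917-40107216) held 1 match. The RUNX motif TGTGGT (present in 13.1% of all promoters), the C/EBP motif TTGCNNAA (10.5%), the E-box CACGTG (7.26%) and the box TATAAA (11.5%) were searched on both strands too. None of these letters was found in the 4 windows. The share of G or C was 59% for CD33, 69% for SLC45A3, 65% for the outer BMF promoter and 50.3% for the inner one.

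The contrast that chose the genes is described without a test. Between 24 h and 2 h, gene-body log2 fold changes (± model SE) were 1.72 ± 0.21 for DPEP2, 1.49 ± 0.12 for SLC45A3, 1.41 ± 0.13 for PRAM1, 1.02 ± 0.15 for C19orf38, 0.90 ± 0.12 for CD33 and 0.76 ± 0.15 for BMF. Counted from the highest of 10304 transcripts, these ranked 1, 3, 4, 19, 42 and 86. The neighbours of BMF in that order were C13orf15 (0.764) and DDAH2 (0.763), against 0.764 for BMF. In this contrast 3.03% of all transcripts were called higher (edgeR, adjusted p under 0.05), a share from which nothing is read about the 6 genes. In a bulk culture, more cells of a type and more engaged polymerase per cell cannot be told apart.

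The time courses of the 6 genes are described gene by gene, and whether they differ from each other was not tested. Gene-body levels below are given in the order of runs 1, 2 and 3, with A before B. CD33 held 26.6, 25.4, 30.2, 25.6 and 30.2 CPM untreated, 25.8, 28.9 and 26.4 CPM at 2 h, 28.5, 33.2, 27.5 and 26.7 CPM at 6 h, and 54.0 and 50.6 CPM at 24 h. Both 24 h libraries stood above all others, while the 2 h and 6 h libraries overlapped the untreated ones. C19orf38 held 9.91, 12.7, 11.8, 11.8 and 11.6 CPM untreated, 13.2, 11.9 and 13.0 CPM at 2 h, 17.6, 20.6, 23.1 and 19.4 CPM at 6 h, and 24.4 and 26.8 CPM at 24 h. All 4 of its 6 h libraries already exceeded every untreated library, as for 10.7% of all transcripts. PRAM1 held 27.8, 35.8, 23.3, 22.8 and 15.9 CPM untreated, 34.7, 25.5 and 29.7 CPM at 2 h, 38.6, 38.8, 36.6 and 31.7 CPM at 6 h, and 70.5 and 71.5 CPM at 24 h. Untreated PRAM1 differed between runs, so that the 6 h libraries overlapped the untreated ones of run 1 but lay above those of their own run.

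DPEP2 held 7.64, 9.79, 5.91, 8.20 and 6.21 CPM untreated, 5.91, 7.20 and 8.21 CPM at 2 h, 9.08, 9.07, 10.5 and 8.35 CPM at 6 h, and 22.4 and 22.8 CPM at 24 h. Its 24 h libraries stood clear of all others. SLC45A3 held 40.5, 50.4, 34.4, 31.9 and 30.4 CPM untreated, 35.2, 25.6 and 29.9 CPM at 2 h, 40.5, 42.4, 41.2 and 35.7 CPM at 6 h, and 79.0 and 74.5 CPM at 24 h. Every 2 h library lay below the untreated libraries of its run, and both 24 h libraries lay above all others. Gene-body counts at 2 h and 24 h chose the genes, so nothing is read from these positions. The share of all transcripts with this 2 h pattern was not counted. BMF held 10.9, 13.7, 14.1, 12.2 and 12.8 CPM untreated, 13.6, 11.8 and 13.9 CPM at 2 h, 19.7, 17.3, 15.0 and 14.7 CPM at 6 h, and 22.1 and 23.2 CPM at 24 h. Its 6 h libraries exceeded all untreated ones, as for 10.7% of all transcripts, and more so in run 2 than in run 3.

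**Figure D1:**
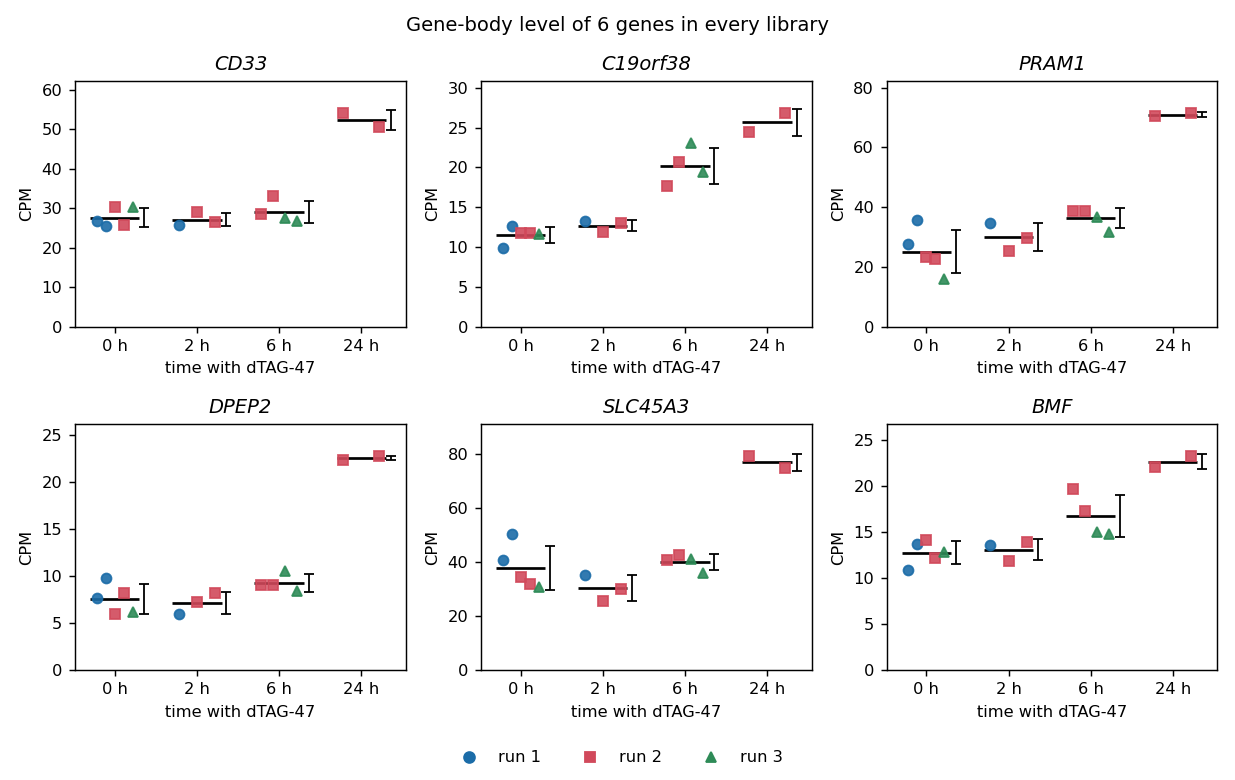
Gene-body level (CPM) of the 6 genes in each of 14 libraries by hours with dTAG-47, with colour and shape for the run, black lines for the mean and bars for ± 1 SD. The 24 h libraries lie above every other library in all 6 panels, and C19orf38 is already higher at 6 h, with a mean of 20.2 CPM against 11.5 CPM untreated.

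Against untreated cells, the 24 h gene-body differences on the log2 scale, again as a description, were 1.66 ± 0.13 for PRAM1, 1.60 ± 0.21 for DPEP2, 1.19 ± 0.11 for SLC45A3, 1.18 ± 0.14 for C19orf38, 0.85 ± 0.11 for CD33 and 0.77 ± 0.15 for BMF. These are 1.70-fold for BMF to 3.15-fold for PRAM1. Within run 2, mean levels at 24 h were 71.0 CPM against 23.0 CPM untreated for PRAM1 and 52.3 CPM against 27.9 CPM for CD33. All 6 genes had both 24 h libraries above every untreated library, as did 17.5% of all transcripts, and 10.8% of all transcripts were called higher at 24 h. The 24 h libraries entered the choice of the genes, so nothing is read from this count. At 2 h the differences from untreated cells ran from -0.30 ± 0.095 (SLC45A3) to 0.25 ± 0.11 (PRAM1), where 19.7% of all transcripts were called higher and 18.9% lower. CD33 (-0.05 ± 0.095) and BMF (0.0034 ± 0.12) lay closest to 0.

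The 6 h libraries did not enter the choice of genes, and there the change against untreated cells was tested. Gene-body reads of 4 of the 6 genes rose (edgeR quasi-likelihood test, Benjamini-Hochberg adjustment), against 13.5% of all transcripts called higher and 26.8% called in either direction. PRAM1 rose by 0.86 ± 0.11 on the log2 scale (1.81-fold, adjusted p = 0.00019) and was higher in 4 of 4 libraries than the untreated libraries of the same run. C19orf38 rose by 0.79 ± 0.12 (1.73-fold, adjusted p = 0.00049), also in 4 of 4 libraries. BMF rose by 0.41 ± 0.12 (adjusted p = 0.0247) and SLC45A3 by 0.31 ± 0.095 (adjusted p = 0.0278). DPEP2 gave 0.37 ± 0.18 (adjusted p = 0.157) and CD33 0.028 ± 0.094 (adjusted p = 0.855), and neither passed. In BMF, SLC45A3 and DPEP2 too, every 6 h library lay above the untreated libraries of its run, which was not so in CD33. The share of all transcripts with this pattern was not counted. Whether the 6 h changes of the 6 genes differ from each other was not tested.

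The run mattered for some of these calls. Within run 2 the CD33 difference at 6 h was 0.14 with overlapping libraries, and within run 3 it was -0.15, with both 6 h libraries below the untreated one. PRAM1 differed by 0.75 within run 2 and 1.09 within run 3, and C19orf38 by 0.69 and 0.86. BMF differed by 0.49 within run 2 and 0.21 within run 3, SLC45A3 by 0.32 and 0.33, and DPEP2 by 0.38 and 0.59. With no run term SLC45A3 gave 0.083 (adjusted p = 0.674). The PRAM1 and C19orf38 calls held under all 22 alternatives. That of SLC45A3 was lost without 0 h 2B (adjusted p = 0.0691), 0 h 3A (0.123), 6 h 2A (0.0623), 6 h 2B (0.0964) or 6 h 3A (0.0554). That of BMF was lost without 0 h 2B (0.0638), 6 h 2A (0.119) or 6 h 2B (0.0666). DPEP2 passed without 2 h 1B (0.48, adjusted p = 0.0315). In the authors' deposited table of gene-body changes at 6 h, PRAM1 (adjusted p = 1.1e-10), C19orf38 (1.8e-07), SLC45A3 (0.0165) and BMF (0.0165) were below 0.05. DPEP2 (0.154) and CD33 (0.909) were not below 0.05 in the authors' deposited table.

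Reads near the promoters, which were not used to choose the genes, were tested at all 3 times, although the 2 h and 24 h libraries are those that gave the gene-body choice. Of the 6 genes 5 had enough promoter-proximal reads to pass the expression filter. BMF held 0 to 6 reads per library and was not tested. A count of 0, as in 1 library at 2 h, allows up to 3 reads, and this limit covers counting error only. CD33 held 5.84, 9.95, 12.8, 8.11 and 16.5 CPM untreated, 14.7, 11.5 and 18.4 CPM at 2 h, 13.4, 10.4, 13.4 and 15.9 CPM at 6 h, and 41.1 and 25.2 CPM at 24 h. Both 24 h libraries stood above all others but differed from each other. C19orf38 held 12.3, 27.2, 13.8, 15.9 and 12.3 CPM untreated, 22.3, 12.1 and 17.2 CPM at 2 h, 32.9, 32.0, 43.0 and 36.4 CPM at 6 h, and 40.1 and 40.0 CPM at 24 h. All of its 6 h and 24 h libraries lay above every untreated one, including 0 h 1B, which stood apart. The 6 h libraries did so for 2.33% of all transcripts and the 24 h libraries for 7.92%. PRAM1 held 3.89, 5.34, 4.25, 3.88 and 4.21 CPM untreated, 4.61, 4.85 and 5.09 CPM at 2 h, 6.69, 6.64, 3.35 and 2.69 CPM at 6 h, and 10.5 and 12 CPM at 24 h. At 6 h PRAM1 was above the untreated libraries in run 2 and below the untreated library in run 3.

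DPEP2 held 20.4, 21.4, 6.91, 3.53 and 4.91 CPM untreated, 6.91, 15.8 and 6.65 CPM at 2 h, 7.72, 9.55, 7.82 and 10.2 CPM at 6 h, and 15.0 and 15.2 CPM at 24 h. Both untreated libraries of run 1 were higher than all others, so the groups overlapped across runs, while within run 2 the 24 h libraries exceeded the untreated ones. SLC45A3 held 11.7, 9.23, 5.85, 5.99 and 7.36 CPM untreated, 3.89, 4.85 and 4.70 CPM at 2 h, 5.14, 5.40, 7.54 and 9.16 CPM at 6 h, and 6.02 and 9.60 CPM at 24 h. All 3 of its 2 h libraries lay below every untreated library, as for 3.76% of all transcripts.

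**Figure D2:**
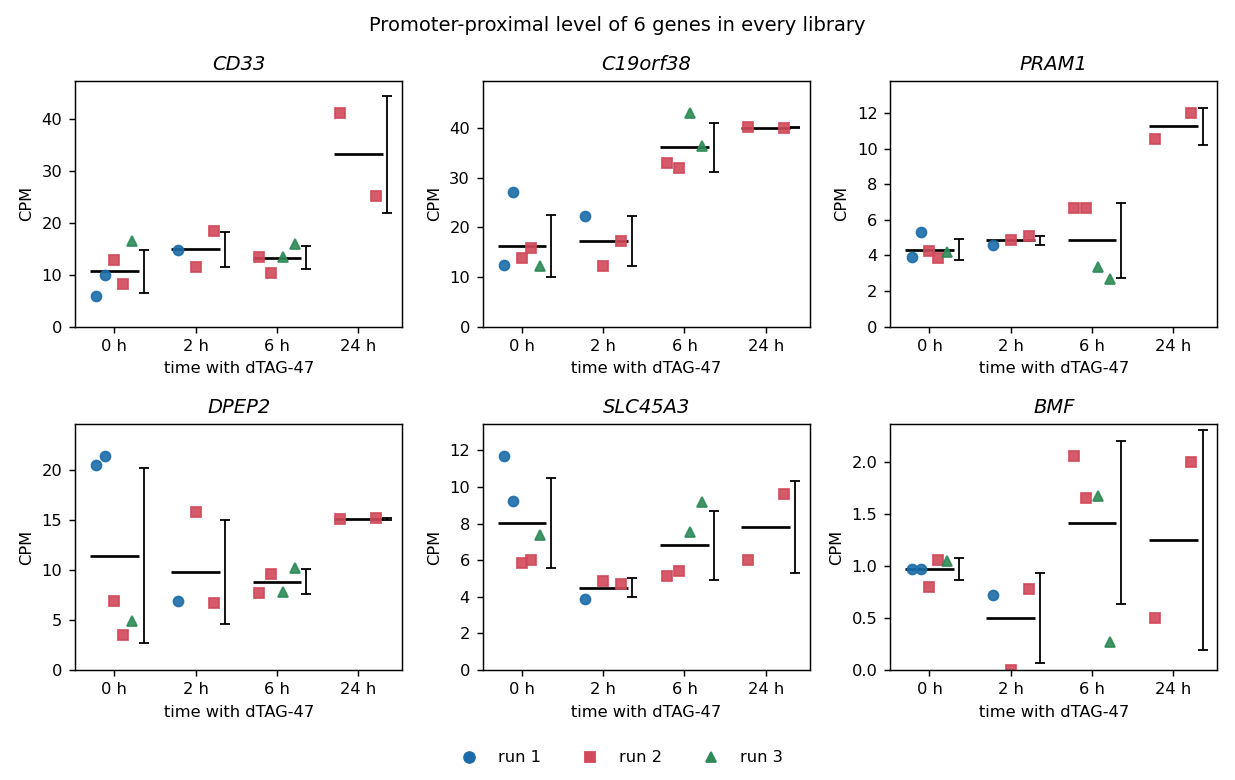
Promoter-proximal level (CPM) of the 6 genes in each of 14 libraries by hours with dTAG-47, with colour and shape for the run, black lines for the mean and bars for ± 1 SD. CD33, C19orf38 and PRAM1 have both 24 h libraries above all untreated ones, and the 2 highest DPEP2 levels are untreated libraries of run 1, at 20.4 and 21.4 CPM.

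At 24 h, promoter-proximal reads of CD33 rose by 1.65 ± 0.32 on the log2 scale (3.13-fold, edgeR adjusted p = 0.0142) and those of C19orf38 by 1.55 ± 0.30 (2.93-fold, adjusted p = 0.0126). These were 2 of 5 genes, against 0.631% of 9980 transcripts called higher and 1.41% called in either direction. The same 24 h libraries entered the gene-body choice of the genes. Nothing is therefore read from this count or from the count of genes without overlap at 24 h. PRAM1 gave 1.22 ± 0.35 (adjusted p = 0.0914), DPEP2 1.0 ± 0.51 (adjusted p = 0.364) and SLC45A3 0.29 ± 0.38 (adjusted p = 0.773). For CD33, C19orf38 and PRAM1 both 24 h libraries lay above every untreated library, as for 7.92% of all transcripts. For CD33 this did not pass without 24 h 2A (1.26, adjusted p = 0.341) or 0 h 2B (1.51, adjusted p = 0.0690). For C19orf38 it did not pass without 24 h 2A (adjusted p = 0.162), 24 h 2B (0.107) or 0 h 2A (0.0624). Both were lost with no run term (0.0521 for CD33 and 0.105 for C19orf38) and with gene-body scaling of the promoter-proximal reads (0.259 and 0.342). DPEP2 passed without 2 h 1B (1.53, adjusted p = 0.0476).

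At 6 h, C19orf38 alone of the 5 rose near its promoter, by 1.35 ± 0.26 (2.55-fold, edgeR adjusted p = 0.00861), against 0.802% of transcripts called higher. It was higher in 4 of 4 libraries, with differences of 1.10 within run 2 and 1.64 within run 3. Its call was lost without 0 h 3A (adjusted p = 0.110), without 6 h 2B (0.0539) and with gene-body scaling (1.11, adjusted p = 0.247). The authors' deposited table gives 1.10 ± 0.40 for C19orf38 near the promoter at 6 h, with an adjusted p of 0.227. CD33 gave 0.067 ± 0.28 (adjusted p = 0.944) at 6 h. At 2 h, 0 of the 5 genes passed in edgeR, against 4.61% of transcripts called, and 2 had an unadjusted p under 0.05. These were SLC45A3 (-0.80 ± 0.32, adjusted p = 0.150) and CD33 (0.63 ± 0.28, adjusted p = 0.191), and DESeq2 with a run term also called 0. SLC45A3 had all 2 h libraries below all untreated ones near the promoter, as did 3.76% of transcripts. BMF, not tested there, did so too, at 0 to 5 reads per 2 h library.

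**Figure D3:**
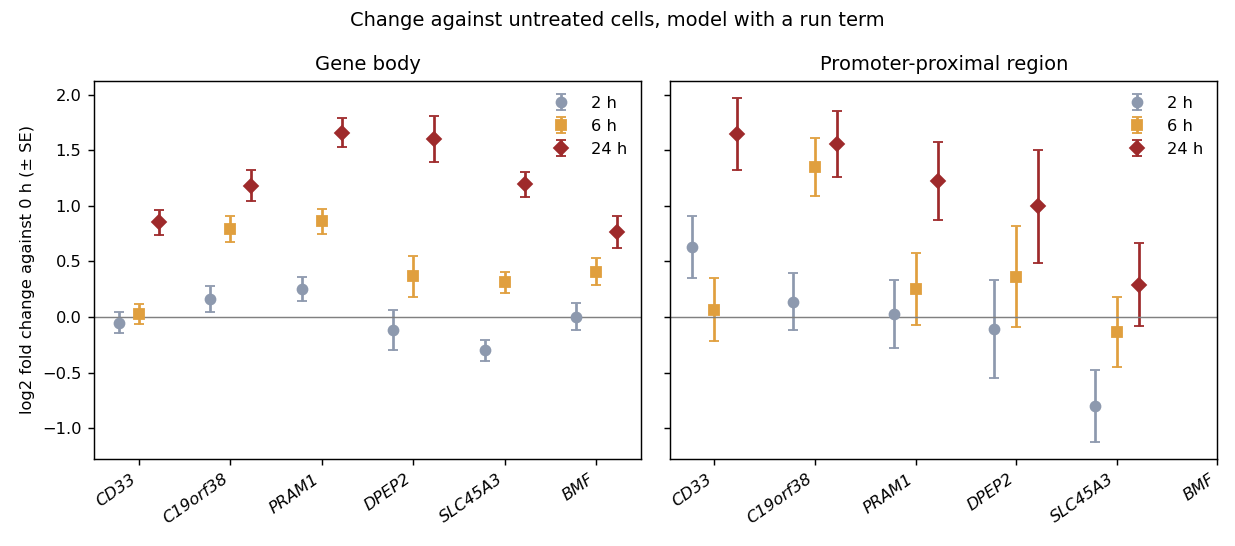
Log2 fold change against 0 h (± model SE) after 2, 6 and 24 h of dTAG-47 for the 6 genes, in the gene body (left) and the promoter-proximal region (right, where BMF was not tested). CD33 lies near 0 in the gene body at 2 h and 6 h and at 0.85 at 24 h, while C19orf38 and PRAM1 are already at 0.79 and 0.86 at 6 h.

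Whether the promoter-proximal change of a gene differed from its gene-body change was tested at 6 h from per-library log2 differences. In limma 0 of the 5 genes passed, against 0.401% of transcripts, and 2 had an unadjusted p under 0.05. PRAM1 gave -0.65 ± 0.25 (adjusted p = 0.325), its gene body being further up than its promoter-proximal region, and C19orf38 gave 0.56 ± 0.22 (adjusted p = 0.348). In untreated cells the promoter-proximal share of a gene's reads was 19.7% ± 6.09 for C19orf38 and 18.0% ± 6.75 for DPEP2 (SD, n = 5). It was 6.53% ± 2.73 for CD33, 3.60% ± 0.81 for SLC45A3, 3.23% ± 1.32 for PRAM1 and 1.37% ± 0.51 for BMF, and the median transcript had 13.1%. The shares of C19orf38 and DPEP2 thus overlapped, and both lay above those of the other 4. The share of DPEP2 was 10.6% ± 1.02 at 24 h and that of CD33 was 9.86% ± 1.66 (SD, n = 2 each, both of run 2). Both overlapped the untreated libraries, with 9.87% to 11.3% at 24 h against 10.1% to 24.0% untreated for DPEP2 and 8.69% to 11.04% against 2.35% to 9.27% for CD33, and no test of the 24 h share was made.

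Per kilobase of listed span, untreated gene-body levels were 1.99 ± 0.58 CPM per kb for PRAM1, 1.85 ± 0.16 for CD33 and 1.66 ± 0.36 for SLC45A3 (SD, n = 5), which overlapped and lay near the median transcript at 1.94. DPEP2 (0.625 ± 0.13), BMF (0.607 ± 0.060) and C19orf38 (0.543 ± 0.047) overlapped too and stood below all libraries of the other 3, between percentiles 7.22 and 9.87 of all transcripts. At 24 h PRAM1 stood highest, at 5.63 ± 0.058 CPM per kb, and BMF lowest, at 1.08 ± 0.039 (SD, n = 2). CD33 (3.50 ± 0.16) and SLC45A3 (3.39 ± 0.14) did not differ beyond their spread, and DPEP2 (1.87 ± 0.021) now exceeded C19orf38 (1.21 ± 0.079).

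Likeness of time course was described by Pearson correlation over the 14 libraries, of gene-body log2 CPM minus the mean of the untreated libraries of the run. All these values share libraries and depth, they include the 24 h and 2 h libraries that chose the 6 genes, and no test was made. Among 9689 transcripts with a mean count of at least 100, the 5 most like CD33 were DUSP6, a phosphatase that dampens ERK signalling (0.967), MKI67, a proliferation marker (0.942), PNP, a purine salvage enzyme (0.933), TNFRSF10A, a death receptor for TRAIL (0.922), and PRDM10, a zinc finger factor (0.911). On the log2 scale these 5 lay between -0.062 and 0.12 of the untreated level at 2 h and 6 h and were higher at 24 h, by 0.65 ± 0.088 for DUSP6, 0.48 ± 0.082 for MKI67 and 0.31 to 0.33 for the other 3. The other 5 chosen genes were less like CD33, with SLC45A3 at 0.826 (rank 25), DPEP2 at 0.780 (53), BMF at 0.766 (61), PRAM1 at 0.662 (215) and C19orf38 at 0.588 (453). By Spearman correlation the same 5 genes stood at 0.099 (DPEP2) to 0.35 (BMF), with ranks 4049 to 1917. The 5 transcripts most like CD33 by Pearson correlation were lower by Spearman too, at 0.71 (TNFRSF10A and PRDM10) to 0.82 (MKI67), with ranks 181 to 27. Among the 15 pairs of the 6 genes, C19orf38 and PRAM1 were most alike (0.974), then DPEP2 and SLC45A3 (0.943), and CD33 and C19orf38 least.

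**Figure D4:**
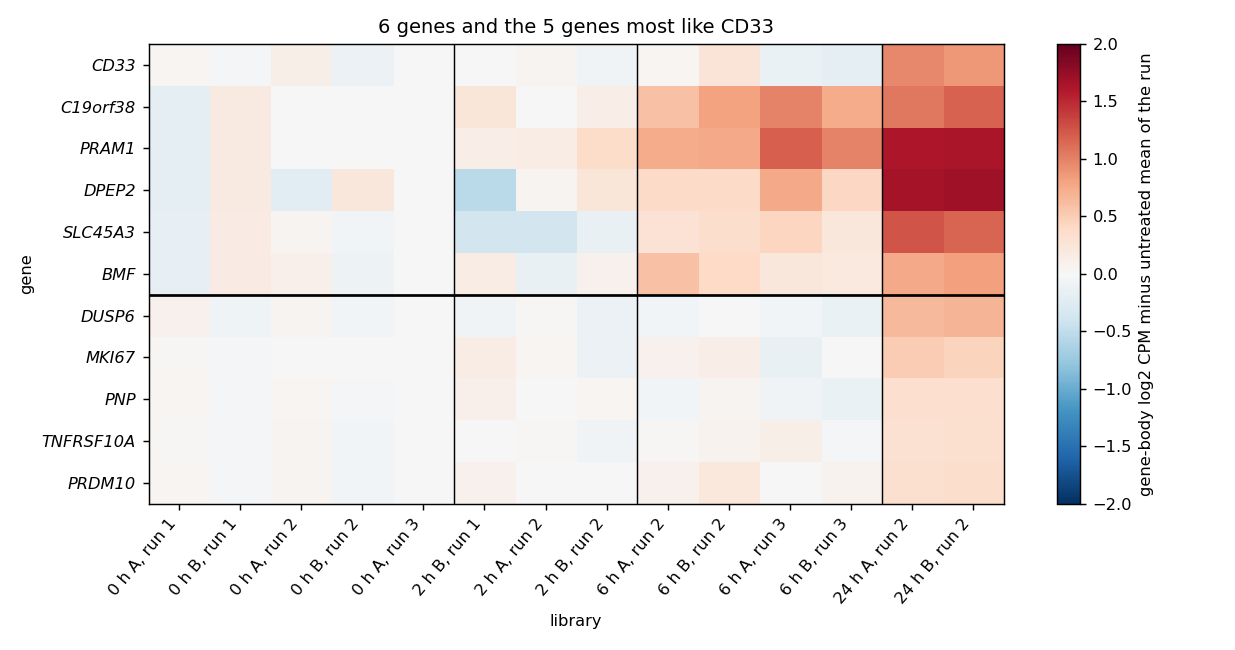
Gene-body log2 CPM minus the mean of the untreated libraries of the same run, in each of 14 libraries (columns, by time and run), for the 6 genes (upper rows) and the 5 transcripts most like CD33 (lower rows). In CD33 and the lower rows, which were picked for likeness to CD33, the 24 h columns are highest, with PRDM10 at 0.21 in 6 h 2B. The other 5 of the 6 genes lie above 0 in every 6 h column, from 0.20 (BMF) to 1.19 (PRAM1).

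The nearest listed genes were compared as a description of each locus. SIGLEC9, another inhibitory Siglec of myeloid cells 88815 bases from CD33, rose at 24 h (0.69, adjusted p = 0.0319). CARM1, an arginine methyltransferase gene 1893 bases from C19orf38, fell by 0.37 at 24 h (edgeR adjusted p = 0.0396). HNRNPM, a splicing factor gene 938 bases from PRAM1, gave 0.026 at 24 h (adjusted p = 0.858). LOC100131089, 20382 bases from BMF, rose at 2 h (0.52, edgeR adjusted p = 0.00535), 6 h (0.48, 0.0115) and 24 h (0.54, 0.0214). BUB1B, a mitotic checkpoint kinase gene 52135 bases from BMF, fell by 0.20 at 6 h (adjusted p = 0.0365). The remaining nearest listed genes, VSIG10L, TMED1, ZNF414, SLC12A4, DDX28, ELK4 and NUCKS1, did not pass at 2 h, 6 h or 24 h. Over all transcripts 10.8% were called higher and 9.08% lower at 24 h, and 13.5% and 13.4% at 6 h. For DPEP2, GENCODE 29 (GRCh38) lists DUS2 on the opposite strand over 12841 bases, and the strand that was counted is not given in the sources used here. DUS2, listed in the table as DUS2L over chr16:68057204-68113184 and named here for that overlap, gave -0.094 ± 0.074 at 24 h (adjusted p = 0.395). That listed span does not overlap the listed span of DPEP2, so its value does not report the shared stretch. BMF shares 555 bases with an antisense gene and C19orf38 shares 412 bases with a processed pseudogene on its own strand, while CD33, PRAM1 and SLC45A3 had no overlapping gene in that annotation. How reads that map to several places were treated, such as those shared by CD33 and its related pseudogene SIGLEC22P, is not given in the sources used here.

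Genes that work beside the 6 were read from lists that leave the 6 out. The lists are described mainly at 6 h and 24 h, and a change seen then can have begun by 2 h. Of 20 Siglecs and their signalling partners 7 were measured, and at 24 h 3 rose and 0 fell, with a median of 0.49 against 0.011 over all transcripts. The gene bodies that rose were those of CD22, the Siglec of B cells (2.01 ± 0.17), SIGLEC9 (0.69 ± 0.21) and SIGLEC12 (0.49 ± 0.15). At 6 h, CD22 (1.75 ± 0.15) and SOCS3, a suppressor of cytokine signalling (0.94 ± 0.24), rose and the phosphatase PTPN11 fell (-0.18 ± 0.052). CD22 had already risen in the gene body at 2 h (1.28 ± 0.15, edgeR adjusted p = 7.7e-05), the 1 call of this list then and 0 with no run term. CD22 also rose near its promoter at 6 h (1.06 ± 0.24) and 24 h (1.43 ± 0.28). At 24 h 1 call was left without 24 h 2A or 24 h 2B, and at 6 h 1 was left without 0 h 3A. Over all transcripts 10.8% were called higher and 9.08% lower at 24 h, and 13.5% and 13.4% at 6 h.

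Of 19 genes of leukotriene and glutathione metabolism, the setting of DPEP2, 8 were measured, and at 24 h 2 rose and 1 fell, with a median of 0.049. The shares of all transcripts at 24 h were 10.8% higher and 9.08% lower in the gene body, and 1.41% called near promoters. GGT7, of the gamma-glutamyltransferase family, fell at 6 h (-2.17 ± 0.21) and 24 h (-2.65 ± 0.29). The leukotriene B4 receptor gene LTB4R rose at 6 h (0.46 ± 0.10) and 24 h (0.74 ± 0.12), as did MGST2, a microsomal glutathione transferase (0.27 ± 0.057 and 0.30 ± 0.070). Near promoters LTC4S, the leukotriene C4 synthase, rose at 6 h (1.28 ± 0.31) and 24 h (1.65 ± 0.37), and GGT7 fell (-2.39 ± 0.42 and -3.37 ± 0.72). In the gene body LTC4S gave 0.00015 ± 0.22 at 6 h and 0.032 ± 0.26 at 24 h and did not pass.

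Of 28 genes of neutrophil adaptor and integrin signalling, the setting of PRAM1, 20 were measured. At 24 h 7 rose and 1 fell in the gene body, with a median of 0.18, and near promoters 0 of 20 were called in edgeR. Among all transcripts 10.8% were called higher and 9.08% lower in the gene body at 24 h. Near promoters 1.41% were called, so 0 of 20 says little. The kinase SYK (0.37 ± 0.057), PML (0.36 ± 0.064), the adaptor FYB (0.65 ± 0.15) and the beta-2 integrin ITGB2 (0.87 ± 0.20) rose, and APBB1IP, which links RAP1 to integrins, fell (-0.23 ± 0.062). RARA, the partner of PML in the fusion that gave PRAM1 its name, rose at 24 h (0.29 ± 0.095). At 6 h 6 rose and 2 fell, among them SYK (0.34 ± 0.048), the ubiquitin ligase CBLB (0.46 ± 0.080) and PML (0.25 ± 0.053), which rose. The shares of all transcripts at 6 h were 13.5% higher and 13.4% lower. Already at 2 h 4 rose, among them SYK (0.20 ± 0.047) and PML (0.32 ± 0.053), and 7 fell, among them APBB1IP (-0.35 ± 0.051). At that time 19.7% of all transcripts were called higher and 18.9% lower. The 8 calls at 24 h became 3 without 24 h 2A, 2 without 24 h 2B and 5 without 0 h 2B. The 8 at 6 h became 3 without 0 h 3A and 5 without 6 h 2B.

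Gene-body calls of this and the next list stand beside 10.8% of all transcripts higher and 9.08% lower at 24 h, and 13.5% and 13.4% at 6 h. Of the SLC45 family and other sugar and monocarboxylate transporters, 6 of 9 were measured. At 24 h the glucose transporter SLC2A1 (-0.55 ± 0.13) and the lactate transporter SLC16A1 (-0.41 ± 0.097) fell and SLC2A3 rose (0.48 ± 0.12), with a median of -0.13. At 6 h 3 fell, SLC2A1 (-0.71 ± 0.10), SLC16A1 (-0.35 ± 0.078) and the fructose transporter SLC2A5 (-0.36 ± 0.093), and 0 rose. The 3 calls at 24 h became 0 without 24 h 2A and 1 without 24 h 2B. Of 19 BCL2 family genes and BMF partners 15 were measured, and at 24 h 3 rose and 1 fell, with a median of 0.19. The survival genes BCL2L1 (0.46 ± 0.097) and BCL2A1 (0.86 ± 0.27) and the BH3-only gene BAD (0.61 ± 0.17) rose. DYNLL2, the dynein light chain that holds BMF in the cytoskeleton, fell at 6 h (-0.68 ± 0.097) and 24 h (-0.81 ± 0.12), and near its promoter at 24 h (-1.65 ± 0.29). At 6 h BCL2L1 (0.33 ± 0.080) and BAD (0.47 ± 0.14) rose, and BID fell with DYNLL2. The 4 calls at 24 h became 1 without 24 h 2A and 2 without 24 h 2B, and the 4 at 6 h became 2 without 0 h 3A, 6 h 2A or 6 h 2B. Runs moved the counts of these lists too. With no run term the calls at 24 h became 1 for the Siglec list, 3 for the integrin list and 2 for the BCL2 list, and those of the BCL2 list at 6 h became 7. Within run 2 the integrin list had 14 calls at 24 h and 13 at 6 h, and the transporter list had 5 at 6 h. Within run 3 the integrin, transporter, BCL2 and leukotriene lists each had 1 call at 6 h.

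Markers of blood cell types were set beside the 6 genes, because CD33, C19orf38 and PRAM1 are known from myeloid cells and SLC45A3 and BMF are not restricted to them. For comparison, 10.8% of all transcripts were called higher and 9.08% lower in the gene body at 24 h, and 1.41% were called near promoters. Of 39 monocyte and macrophage markers 8 were measured, and at 24 h 0 passed in the gene body in edgeR. The count was 2 in DESeq2 with a run term, 1 without 0 h 1A, 1B, 2A or 2B, 2 without 2 h 1B, 3 without 0 h 1A and 1B together and 5 within run 2. Near promoters CD300A, an inhibitory receptor of myeloid cells, rose at 24 h (1.31 ± 0.32, edgeR adjusted p = 0.0486), 1 of 8. Their summed gene-body level was 2147 to 2190 CPM at 24 h, against 1778 to 2774 CPM untreated. Of 34 granulocyte markers 11 were measured, and at 24 h 3 rose and 0 fell in the gene body, with a median of 0.23. These were the transcription factors CEBPE (1.12 ± 0.28) and CEBPA (0.75 ± 0.20) and the granule enzyme gene MPO (0.31 ± 0.098), and 0 were called without either 24 h library and 5 in run 2 alone. CEBPA (0.75 ± 0.16, edgeR adjusted p = 0.00304) and CEBPE (0.70 ± 0.23, 0.0303) had already risen at 2 h, where 19.7% of all transcripts were called higher. These 2 h calls became 0 with no run term or without 2 h 1B. Between 24 h and 2 h CEBPA gave -0.0017 ± 0.20 and CEBPE 0.42 ± 0.29. Near promoters 0 of the 11 rose at 24 h and the transcription factor CEBPB fell (-2.03 ± 0.36), with a median of -0.054. The summed gene-body level was 2275 to 2349 CPM at 24 h, against 1521 to 2104 CPM untreated. Of 20 progenitor markers 11 were measured, and at 24 h CD34 rose (0.80 ± 0.14) and HLF (-1.12 ± 0.15), RUNX1 (-0.26 ± 0.047) and KIT (-0.20 ± 0.055) fell in the gene body, with a median of 0.013. The 4 calls became 1 with no run term, 7 without 2 h 1B or without 0 h 1A and 1B together, and 8 in run 2 alone. The summed level was 11153 to 11386 CPM at 24 h, against 11275 to 13382 CPM untreated. Of 22 erythroid and megakaryocyte markers 3 were measured, and none passed in the gene body at 24 h in edgeR (1 without 2 h 1B or without 0 h 1A and 1B together, 3 in run 2 alone), with 268 to 286 CPM at 24 h against 271 to 322 CPM untreated.

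At 6 h, the time at which the gene-body changes of the 6 genes were tested, 0 progenitor markers rose and 5 fell in the gene body, with a median of -0.17. These were HLF (-1.09 ± 0.12), RUNX1 (-0.32 ± 0.038), KIT (-0.34 ± 0.045), MYB (-0.36 ± 0.082) and ERG (-0.17 ± 0.040). Their summed level was 9233 to 10389 CPM at 6 h, against 11275 to 13382 CPM untreated, and the groups did not overlap. The sums of marker lists were not split by run. The 5 calls became 9 in run 2 alone or without 0 h 1A and 1B together, and 3 in run 3 alone. For this and the following lists, the shares of all transcripts at 6 h were 13.5% higher and 13.4% lower in the gene body. Of the monocyte and macrophage markers CD4 rose (0.23 ± 0.075) and ZEB2 (-0.65 ± 0.084) and TLR2 (-0.42 ± 0.13) fell at 6 h. The summed level of that list was 1214 to 1750 CPM at 6 h against 1778 to 2774 CPM untreated, also without overlap. A sum follows its most abundant genes, and the list median at 6 h was 0.052, with 5 of 8 genes higher, called or not. The 3 calls became 1 without 0 h 3A, 6 h 2A or 6 h 2B, 5 in run 2 alone and 1 in run 3 alone. The granulocyte markers had a median of -0.083 at 6 h, with 5 of 11 higher, called or not, although their sum was higher in part. Of the granulocyte markers 0 rose and FUT4, which makes the CD15 antigen, fell (-0.24 ± 0.064), with sums of 1937 to 2379 CPM at 6 h against 1521 to 2104 CPM untreated. That count became 0 without 0 h 3A or 6 h 2A, with no run term or in run 3 alone, 2 without 2 h 1B or without 0 h 1A and 1B together, and 4 in run 2 alone. Near promoters CEBPB fell at 6 h (-1.62 ± 0.29). The erythroid markers summed to 247 to 259 CPM at 6 h against 271 to 322 CPM untreated, also without overlap. Of the 3 measured, 1 fell, the transferrin receptor gene TFRC (-0.30 ± 0.058). That count became 2 without 0 h 1A, 2 h 1B or 0 h 1A and 1B together, 3 in run 2 alone and 0 in run 3 alone. None of 22 lymphoid and 15 mast cell, basophil and eosinophil markers is among the transcripts used here. The part of these marker changes in the levels of the 6 genes was not tested.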

How the data were processed

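PRO-seq libraries of 14 tagged Kasumi-1 samples were analysed, per the labels; the parental line was not analysed here. The deposited tables give read counts that the authors made per RefSeq transcript, in the gene body and the promoter-proximal region, on hg19. Trimming with Trimmomatic 0.32 and alignment with Bowtie2 2.2.2 are named in the submitters' processing notes, beside HOMER, SAMtools and DESeq2. None of the sources used here gives the counting windows, the strand counted or the treatment of reads that map to several places, so reads of overlapping genes may be mixed. The authors' log2 fold changes and their p-values, deposited beside the counts, are quoted only where named. The 84 deposited normalized columns, 14 in each of 6 tables, were not used. Column names give a time, a letter and a run code but no replicate number, so libraries are named by these.

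Counts of each region were fitted in R 4.3.3 with edgeR 4.0.16 (quasi-likelihood, TMM scaling, default expression filter, all 14 libraries, terms for run and time). Benjamini-Hochberg adjustment covered all transcripts, 10304 in gene bodies and 9980 near promoters, with a threshold of 0.05. The run term was used because the genes are read within runs. Differences between regions were tested with limma 3.58.1 on log2 CPM (prior count 2). CPM per kb uses the listed span. DESeq2 1.42.0, other scalings, other filters, single runs and omission of each library were alternatives. The procedure was tested on simulated data with the same spread for all transcripts and no run effect, so that test does not cover differences between runs. The genes and lists were chosen with earlier results of these data known, and the 24 h and 2 h gene-body counts of the 6 genes carry no p. Named genes were the 6, up to 4 of each list by adjusted p plus those needed to describe it, and the 5 most like CD33. DUS2 and RARA were chosen after their values were seen.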

Additional observations from a re-analysis of the deposited data

Results flagged for a closer look

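Among 24 groups of 4 or 5 libraries of the 6 genes, 2 held a library far from the others of its group, where chance gives about 1 in 20 groups. Both were the same untreated library. Near the C19orf38 promoter 0 h 1B (library B of run 1) held 27.2 CPM, against 12.3 to 15.9 CPM in the other untreated libraries. Near the PRAM1 promoter it held 5.34 CPM, against 3.88 to 4.25 CPM.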

How the results depend on the processing

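No called value changed direction. The PRAM1 and C19orf38 gene-body calls at 6 h held under all 22 alternatives, and calls of the 6 genes lost or gained without 1 library are given beside each result. Near promoters at 24 h, PRAM1 and DPEP2 passed in edgeR in run 2 alone (adjusted p = 0.00606 and 0.0142) and without both untreated libraries of run 1 (0.0484 and 0.0308), where DPEP2 also passed in the gene body at 6 h (0.0211). Run 3 alone lost the 6 h calls of SLC45A3 (0.397) and BMF (0.709) in the gene body and of C19orf38 near the promoter (0.244). At a threshold of 0.01 SLC45A3 and BMF at 6 h and both promoter-proximal calls at 24 h were lost. Counts of called transcripts moved more. The 2762 gene-body calls at 6 h became 1302 at an adjusted p under 0.01, 4383 in run 2 alone and 696 in run 3 alone. Promoter-proximal calls were 460 at 2 h, 224 at 6 h and 141 at 24 h. They became 716, 364 and 245 in DESeq2 with a run term, 64, 50 and 19 at 0.01, and 34, 68 and 22 with gene-body TMM factors. Run 2 alone gave 1682, 938 and 1430, and run 3 alone 5 at 6 h. With no run term they were 6 at 2 h and 20 at 24 h. Without both untreated libraries of run 1, chosen after seeing the data, they were 539 at 6 h and 374 at 24 h. The 40 calls of the difference between regions became 208 in run 2 alone and 141 without both untreated libraries of run 1. Leaving out 1 library at a time gave 1545 (without 6 h 2B) to 3329 (2 h 1B) gene-body calls at 6 h. Near promoters it gave 137 (2 h 2A) to 724 (6 h 3A) at 2 h, 27 (6 h 2B) to 381 (0 h 1A) at 6 h and 3 (24 h 2A) to 279 (0 h 1A) at 24 h, and 0 (6 h 2B) to 88 (0 h 1A) calls of the difference. Of the 5 transcripts most like CD33, 3 stayed among the first 5 without centring on the run and 0 with Spearman correlation. The cause of these shifts was not tested.

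Run 3 holds 1 untreated library, 24 h rests on 2 libraries of run 2, and promoter-proximal counts of the 6 genes were 0 to 155 reads, so small differences there were not detectable at this depth. No paired analysis was possible because the column names carry a time, a letter and a run code but no replicate number.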
